A study of Mus musculus with 33 samples.

Results

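The genes described here are 8 genes of iron and haem recycling in macrophages: Slc40a1, Hmox1, Cd163, Cd5l, Spic, Blvrb, Slc11a1 and Tfrc. They were taken by symbol, with every probe set that carries the symbol, which gave 12 of the 45037 probe sets on the array. All 8 genes and all 12 probe sets passed the filter on low signal, so they are 8 of the 13463 genes tested. The set was proposed with results of these arrays in view, above all the contrast of whole medulla with whole cortex. That contrast is therefore given for the 8 genes as a description with no test.

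RNA from thymuses of male C57bl6/J mice, with ages of 4 to 6 weeks in the labels, had been hybridised to 33 arrays in 7 groups, with no mutation or treatment in the labels. Tissue cut out by microdissection made up 23 arrays, from whole medulla (n = 7), perimedullary cortex (n = 3), subcapsular cortex (n = 3), central cortex (n = 3) and whole cortex (n = 7). The other 10 arrays held sorted cells. Sorted medullary thymocytes (n = 5) were gated on CD45 and high CD3. Sorted cortical thymocytes (n = 5) were gated on CD45, on absent or low CD3, and on CD90 or CD117. Arrays of a group are named biological replicates in the titles, and no label says which animal a region came from. Values of p over regions can be too small if arrays of a group share animals.

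Macrophages that clear dying cells and red cells break haem down and return the iron to the circulation. Haem oxygenase cleaves haem to biliverdin, carbon monoxide and iron, biliverdin reductase acts on the bile pigment, and ferroportin carries the iron out of the cell. The thymus holds many macrophages, which remove the thymocytes that die during selection.

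By role, Hmox1 encodes the inducible haem oxygenase, Blvrb biliverdin reductase B and Slc40a1 ferroportin, the iron exporter. Cd163 is the receptor for complexes of haptoglobin and haemoglobin, and Cd5l encodes a secreted protein of tissue macrophages. The proteins of Cd163 and Cd5l are both built from scavenger receptor cysteine-rich domains. Spic encodes the transcription factor of red pulp macrophages, and Slc11a1 the metal transporter of the phagosome, of which C57BL/6 mice are known to carry an impaired form. Tfrc encodes transferrin receptor 1, through which dividing cells take up iron, so it is the member least tied to macrophages.

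On assembly GRCm38.p6 of the RefSeq gene table, Slc40a1 lies at chr1:45908070-45926532, Slc11a1 at chr1:74375014-74386057, Cd5l at chr3:87357881-87371074 and Cd163 at chr6:124304636-124330529. Blvrb lies at chr7:27447978-27465981, Hmox1 at chr8:75093618-75100593, Spic at chr10:88675269-88683023 and Tfrc at chr16:32608896-32632794.

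Cd163 and Cd5l were the members called between parts of the cortex, so the 250 bases before their start sites in the RefSeq promoter table are shown, on GRCm38.p6 and both on the plus strand. For Cd163 that start site lies 15 bases inside the gene as placed above. Cd163 is at chr6:124304401-124304650 and Cd5l at chr3:87357631-87357880. Capitals mark GAGGAA, a longer form of the GGAA core bound by PU.1 and its relative SPI-C, on either strand.
Cd163: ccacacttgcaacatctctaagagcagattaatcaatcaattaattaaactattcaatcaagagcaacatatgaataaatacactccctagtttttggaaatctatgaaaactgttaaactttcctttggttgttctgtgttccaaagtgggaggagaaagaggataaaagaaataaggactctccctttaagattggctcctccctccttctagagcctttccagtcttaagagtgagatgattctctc
Cd5l: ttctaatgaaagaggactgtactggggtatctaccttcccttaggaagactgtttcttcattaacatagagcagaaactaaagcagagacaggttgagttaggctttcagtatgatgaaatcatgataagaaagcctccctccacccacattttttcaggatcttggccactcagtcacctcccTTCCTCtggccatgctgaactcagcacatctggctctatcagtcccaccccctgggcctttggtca
The window of Cd163 holds no GAGGAA and that of Cd5l holds 1, read on the minus strand as TTCCTC. This core stands in 23.3% of the 32851 promoter windows of the table, so its presence in a window is common. The recognition core of NRF2 and BACH1, TGACNNNGC, stands in 10.2% of windows on either strand, and AGATAA, 1 form of the GATA core, in 9.99%. Neither of these sequences is in the windows of Cd163 and Cd5l. Other forms of the GATA core were not searched, and the Cd5l window holds TGATAA. The RefSeq promoter table holds 6 of the 8 genes, and these 3 sequences were searched in all their 8 windows. Slc11a1 has GAGGAA in its window, and no other match to the 3 sequences was found in the windows of Spic, Blvrb, Slc11a1 and Tfrc. The start site of the Slc11a1 window lies 189 bases inside the gene as placed above. Those of the second windows of Blvrb and Tfrc lie 4440 and 226 bases inside.

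Levels are array signals on the linear scale, and fold changes are differences of group means of log2(signal + 26.2), so they understate the change of weak signals. A gene was called at a Benjamini-Hochberg adjusted p below 0.05 in limma with an absolute log2 fold change of at least 1. The levels of different genes are not set against each other, since probe sets differ in their response. Whole and divided tissue may not share 1 scale. The signal exceeded by 0.1% of probe sets was 16919 to 19984 on divided cortex arrays, against 33358 to 75998 on whole tissue arrays. For some genes whole cortex lay outside the range of its parts, such as Spic, at a mean of 228 against 50.7 to 98.1. Levels of whole and divided groups are thus set side by side only as a description.

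Slc40a1 had the widest range among the members. Its signal was 3063, 2358 and 2667 in perimedullary cortex and 2911, 2485 and 2497 in central cortex. It was 1462, 1492 and 1197 in subcapsular cortex. In whole medulla the signal ran between 253 and 348, with a median of 269, against 1241 to 2189 with a median of 1529.6 in whole cortex. On this probe set, every whole medulla array thus lay below every array of cortex, whole or divided. The sorted cells had far less: 33.5, 27.4, 17.0, 42.5 and 31.5 in medullary thymocytes, against 4.05, 7.29, 6.66, 31.8 and 7.48 in cortical thymocytes. All 10 sorted arrays were below the median signal of their array for this gene, and all 23 tissue arrays above it.

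In order of mean level, Slc40a1 stood at 2696 ± 354 in perimedullary cortex, 2631 ± 242 in central cortex, 1581 ± 340 in whole cortex and 1384 ± 162 in subcapsular cortex. It stood at 286 ± 36.2 in whole medulla, 30.4 ± 9.32 in sorted medullary thymocytes and 11.5 ± 11.5 in sorted cortical thymocytes (SD, n as given above). Perimedullary and central cortex did not differ beyond their spread, nor did whole and subcapsular cortex, and the arrays of both sorted groups overlapped. The second probe set, weaker on tissue, also had the medulla below the whole cortex, at 126.8 ± 47.4 against 443.8 ± 99.3. It did not give the same order among the cortical groups: perimedullary cortex was at 225 ± 17.2, central cortex at 245 ± 51.9 and subcapsular cortex at 138 ± 4.69, all below whole cortex. On it the whole medulla arrays, at 38.9 to 198, overlapped those of subcapsular and central cortex.

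**Figure D1:**
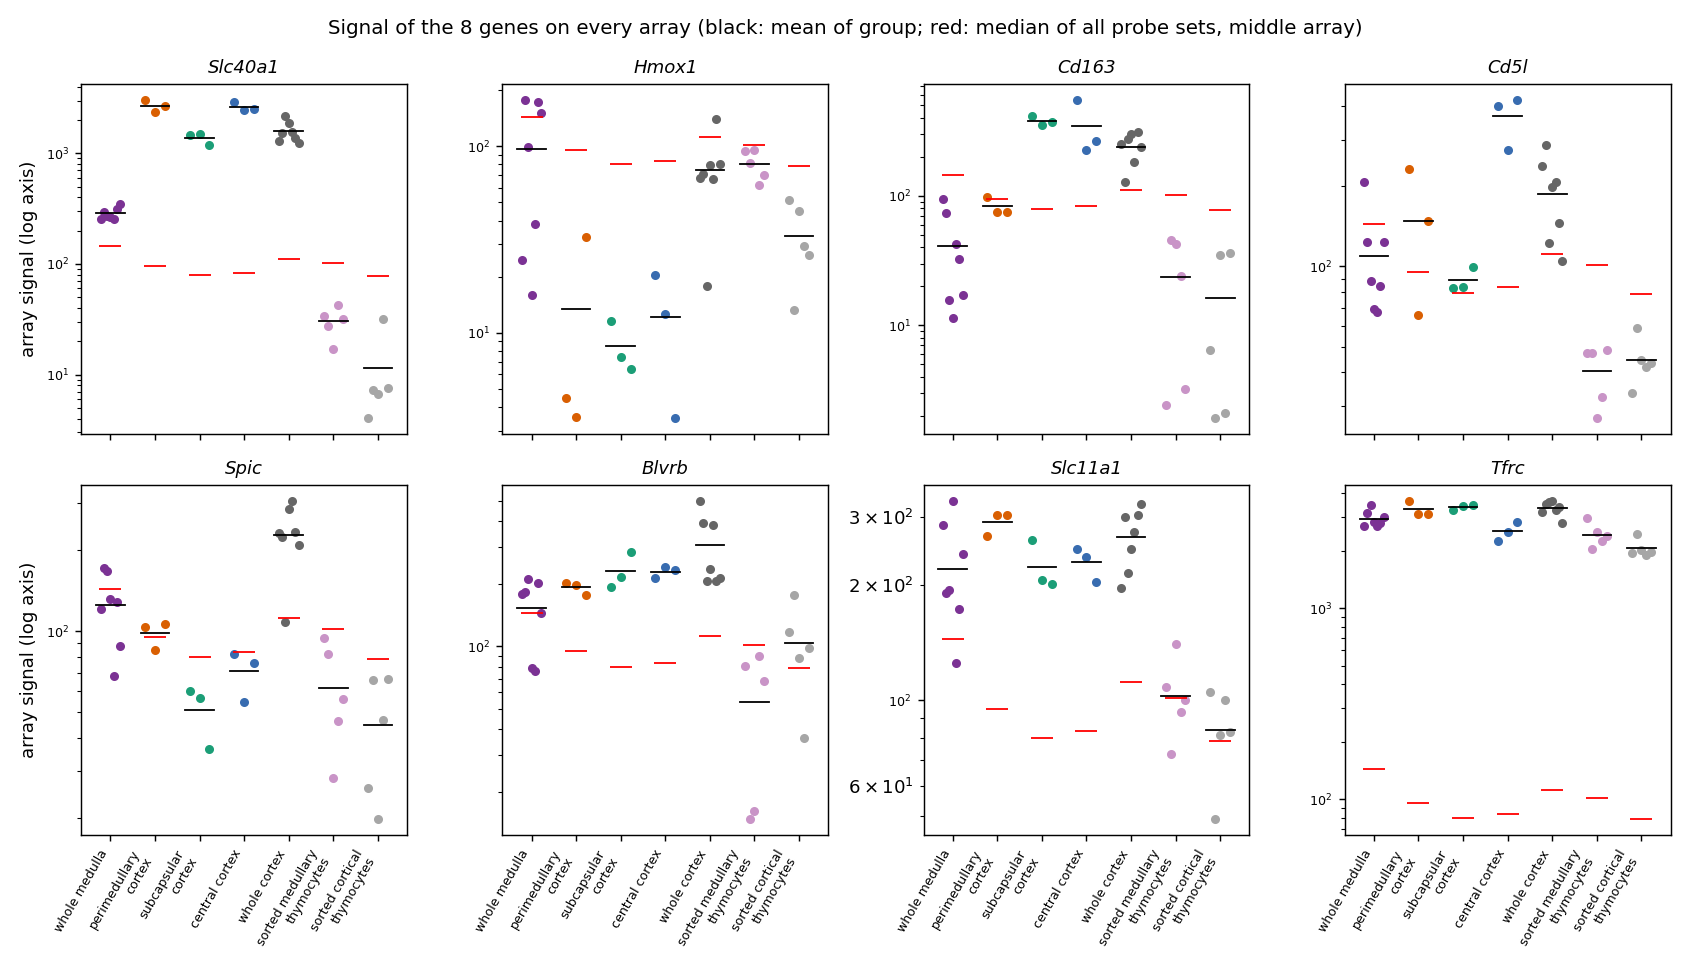
Signal of the 8 genes on each of the 33 arrays (log axis, 1 point per array, 1 panel per gene), with a black bar at the group mean and a red bar at the median of all probe sets on the middle array of the group. Slc40a1 is above the red bar in all tissue groups and below it in both sorted groups, while Hmox1 points lie mostly below it.

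Between whole medulla and whole cortex, 2 of the 8 genes had arrays that did not overlap on their main probe set, Slc40a1 and Cd163, both lower in the medulla. Of all genes tested, 10.9% were lower in this way, and nothing is read from the members' count, since the choice of members used this contrast. The log2 difference was -2.35 (SE 0.14) for Slc40a1 and -2.07 (SE 0.27) for Cd163. Blvrb differed by -0.89 (SE 0.26), Spic by -0.74 (SE 0.21) and Cd5l by -0.66 (SE 0.22). For Slc11a1 the difference was -0.28 (SE 0.17), for Tfrc -0.18 (SE 0.083) and for Hmox1 0.12 (SE 0.31).

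Cd163 ran between 11.5 and 95.2 in whole medulla, with a median of 32.6, against 127 to 310.5 with a median of 249.96 in whole cortex. It passed the median of its array on 0 of 7 medulla arrays and on all 7 of whole cortex. Cd5l had 67.3 to 208 in whole medulla, with a median of 88.2, against 104.5 to 287 with a median of 199 in whole cortex. Spic had 68.2 to 172 in whole medulla, with a median of 129, against 108 to 306 with a median of 232 in whole cortex. For both genes the groups overlapped, though 4 of 7 medulla arrays were below every whole cortex array in Cd5l, and 6 of 7 whole cortex arrays were above every medulla array in Spic. On the second Spic probe set the groups did not overlap, at 63.1 to 101 in whole medulla against 110.5 to 243.8 in whole cortex (log2 difference -0.91). Blvrb had 76.3 to 209.9 in whole medulla, with a median of 178, against 207 to 502 with a median of 235 in whole cortex, so the groups met at their edges. Slc11a1, at 125 to 330.1 in whole medulla against 195 to 324 in whole cortex, and Tfrc, at 2688 to 3444 against 2792 to 3633, overlapped broadly.

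Some macrophage markers went the other way in the same tissue. The summed signal of 9 marker genes ran between 30332 and 40326 in whole medulla, against 9132 to 13637 in whole cortex. Of the 9, 4 were called higher in the medulla and 0 lower, where 18.5% of all genes tested were called higher. The 4 included Lyz2, at a log2 fold change of 2.59 (SE 0.11, limma adjusted p = 1.38e-20) and Csf1r, at 1.39 (SE 0.14, limma adjusted p = 4.97e-11). The calls also took in C1qa and C1qb, subunits of complement C1q. Other defining markers were not called: Adgre1, which encodes F4/80, was at -0.26 (limma adjusted p = 0.0851), Mertk, a receptor for dying cells, at -0.02 (limma adjusted p = 0.944) and Cd68 at 0.07 (limma adjusted p = 0.686). Slc40a1 and Cd163 were thus lower where the markers summed higher, while the markers differed among themselves. Markers of other cells moved in the same comparison. All 7 dendritic cell markers were called higher, with a summed signal of 24572 to 43445 in whole medulla against 924 to 1266 in whole cortex. Of 6 epithelial markers, 3 were called higher and 1 lower, with sums of 21144 to 23882 in whole medulla against 10767 to 13939 in whole cortex. Their part in the levels of the 8 genes and of the pathway genes was not tested. In tissue of mixed cells, fewer cells of a type and less RNA per cell cannot be told apart.

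Wide upper tails of signal marked 13 arrays, 5 of 7 in whole medulla, 5 of 7 in whole cortex and 3 of 5 in sorted medullary thymocytes. On these arrays the brightest 0.1% of probe sets all lay above 42000. Within the arrays without such a tail, Slc40a1 differed between medulla and cortex by -1.89 (SE 0.13) and Blvrb by -0.26 (SE 0.24).

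**Figure D2:**
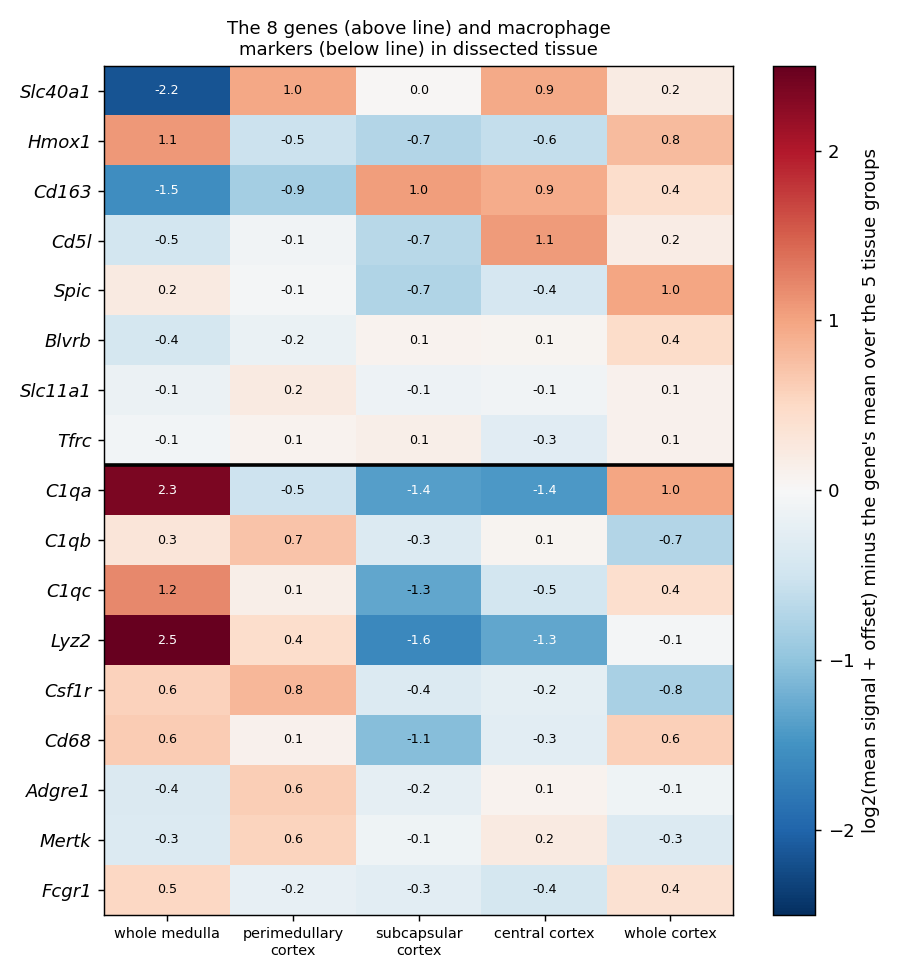
Colour and number in each cell give log2(mean signal + 26.2) of a gene in 1 tissue group minus the mean of that gene over the 5 tissue groups, with the 8 genes above the line and 9 macrophage markers below it. Slc40a1 and Cd163 are lowest in whole medulla. Among the markers, C1qa, C1qc, Lyz2 and Fcgr1 are highest there, and Cd68 is about equal in whole medulla and whole cortex. C1qb, Csf1r, Adgre1 and Mertk are highest in perimedullary cortex, and Adgre1 is lowest in whole medulla. Whole and divided tissue may not share 1 scale.

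The divided cortex placed the members in more detail, with 3 arrays a region. Cd163, the haemoglobin scavenger receptor, had signals of 98.1, 74.95 and 75.7 in perimedullary cortex, against 554.7, 226 and 264.7 in central cortex. In subcapsular cortex it had 412, 353 and 372. All 3 perimedullary arrays were below every array of the other cortical regions. Its arrays in whole medulla overlapped those of perimedullary cortex.

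Perimedullary cortex against central cortex asked what changes in the cortex close to the medulla. Of the 8 genes, 2 were called lower, Cd163 and Cd5l, where 0.0371% of all genes tested were, and 0 were called higher, where 1.31% were. At an unadjusted p below 0.05 in limma, 2 were lower and 1 higher. Cd163 fell by 1.69 on the log2 scale (SE 0.42, limma adjusted p = 0.0173). Without replicate 1 of central cortex, the highest of its group, the fold change was -1.32 and the call was lost (limma adjusted p = 0.198). It was also lost without perimedullary replicate 2 or 3 (limma adjusted p = 0.079 and 0.0762) and with the smaller offset tried, 6.55 (limma adjusted p = 0.197).

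Cd5l, the secreted macrophage protein, had signals of 232.9, 65.8 and 147.7 in perimedullary cortex, against 401, 275 and 424 in central cortex. In subcapsular cortex it had 83.2, 83.4 and 99.7, so all central arrays were above those of both other regions. Cd5l fell by 1.27 between perimedullary and central cortex (SE 0.33, limma adjusted p = 0.0284). The call was lost without central replicate 1 or 3, or perimedullary replicate 2 or 3, with limma adjusted p between 0.0702 and 0.353. It also ended with the smaller offset or 4 times the offset, with quantile normalization and in a fit of these groups alone. Slc40a1 differed by 0.03 between these regions (SE 0.21, limma adjusted p = 0.996, 95% interval -0.39 to 0.46).

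Subcapsular cortex against central cortex had 1 member called lower, Cd5l, where 0.446% of all genes tested were, and 0 called higher, where 0.847% were. Cd5l fell by 1.75 (SE 0.33, limma adjusted p = 0.000772), and it was called with each of the 6 arrays left out in turn. Slc40a1 was lower on every subcapsular array, at a log2 fold change of -0.92 (SE 0.21, limma adjusted p = 0.00428), short of the fold floor. Tfrc was higher on every subcapsular array, at 0.43 (SE 0.13, limma adjusted p = 0.0302), again short of the floor. Cd163 differed by 0.21 (SE 0.42, limma adjusted p = 0.882).

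Perimedullary against subcapsular cortex had 1 member called lower, Cd163, where 1.66% of all genes tested were, and 0 called higher, where 2.91% were. Cd163 fell by 1.90 (SE 0.42, limma adjusted p = 0.00128), with the call present in all 6 fits that left out an array. Slc40a1 was higher on all 3 perimedullary arrays, at 0.95 (SE 0.21, limma adjusted p = 0.00124), just short of the fold floor. Without perimedullary or subcapsular replicate 2 it crossed the floor, at up to 1.04. Cd5l differed by 0.49 (SE 0.33, limma adjusted p = 0.382). The 3 comparisons of cortical regions share arrays, so their values are not independent.

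Macrophage markers again ran against Cd163 there. Their summed signal was 19071 to 21002 in perimedullary cortex, 7626 to 9286 in subcapsular cortex and 9561 to 11697 in central cortex. Against subcapsular cortex, 5 of 9 markers were called higher in perimedullary cortex, where 2.91% of all genes tested were, and 0 lower. Against central cortex, 2 were higher, where 1.31% of all genes tested were, and 0 lower. Dendritic cell markers moved with them: 4 of 7 were called higher against subcapsular cortex and 3 of 7 against central cortex, with sums of 2783 to 3278 in perimedullary, 618 to 699 in subcapsular and 1092 to 1552 in central cortex. The neutrophil and monocyte markers summed to 1938 to 5274 in perimedullary, 6686 to 12984 in subcapsular and 915 to 9587 in central cortex. Their part in the levels of Cd163 and Cd5l was not tested.

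Spic, Blvrb and Slc11a1 differed less among the cortical regions, and none was called in these 3 comparisons. Spic had signals of 103, 84.7 and 106 in perimedullary cortex, 59.7, 56.2 and 36.3 in subcapsular cortex and 81.9, 54.3 and 76.0 in central cortex. Its perimedullary arrays were above all arrays of the other regions by a small margin (log2 fold change 0.70 against subcapsular cortex, SE 0.33, limma adjusted p = 0.156). A second Spic probe set gave the same value of 0.70, and 0.45 against central cortex with overlapping arrays.

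Blvrb, which encodes biliverdin reductase B, had 203, 197 and 177 in perimedullary cortex, 193, 215 and 285 in subcapsular cortex and 213, 239.8 and 234 in central cortex. Its perimedullary arrays were all below those of central cortex by a small margin, and subcapsular cortex overlapped both. Slc11a1 had 267.5, 304 and 303 in perimedullary cortex, 261, 206 and 200.1 in subcapsular cortex and 248, 236 and 202.5 in central cortex. Its perimedullary arrays were all above the others (log2 fold change 0.32 against central cortex, 95% interval -0.19 to 0.83), a difference that did not pass the test.

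Hmox1 was weak throughout. Its signal passed the median of its array on 4 of 33 arrays. It was 4.50, 3.53 and 32.5 in perimedullary cortex, 11.6, 7.42 and 6.44 in subcapsular cortex and 20.5, 12.7 and 3.51 in central cortex. Whole medulla ranged between 16.0 and 178, with a median of 99.6, against 17.8 to 139 with a median of 70.6 in whole cortex. Arrays within whole medulla thus spanned more than the gap between the group means, 97.0 ± 71.0 against 74.5 ± 35.6. None of the 6 comparisons with a test called Hmox1.

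Tfrc was strong on its main probe set in all groups and moved little. It had 3646, 3102 and 3108 in perimedullary cortex, 3272, 3441 and 3482 in subcapsular cortex and 2250.2, 2497 and 2838 in central cortex. Central cortex was lowest among the tissue means, at 2528 ± 295. The summed signal of 17 genes of dividing cells had a median of 103852 in perimedullary, 141518 in subcapsular and 109118 in central cortex. Between perimedullary and central cortex 0 of the 17 were called by limma, with 4 lower at an unadjusted p below 0.05, and Tfrc was at 0.38 (SE 0.13, limma adjusted p = 0.138), with another probe set at -0.27. Between subcapsular and central cortex 1 of the 17 was called higher and 12 were higher at an unadjusted p below 0.05. Both other Tfrc probe sets were weaker, and one had 64.2 to 260.2 in whole medulla against 244 to 415 in whole cortex.

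**Figure D3:**
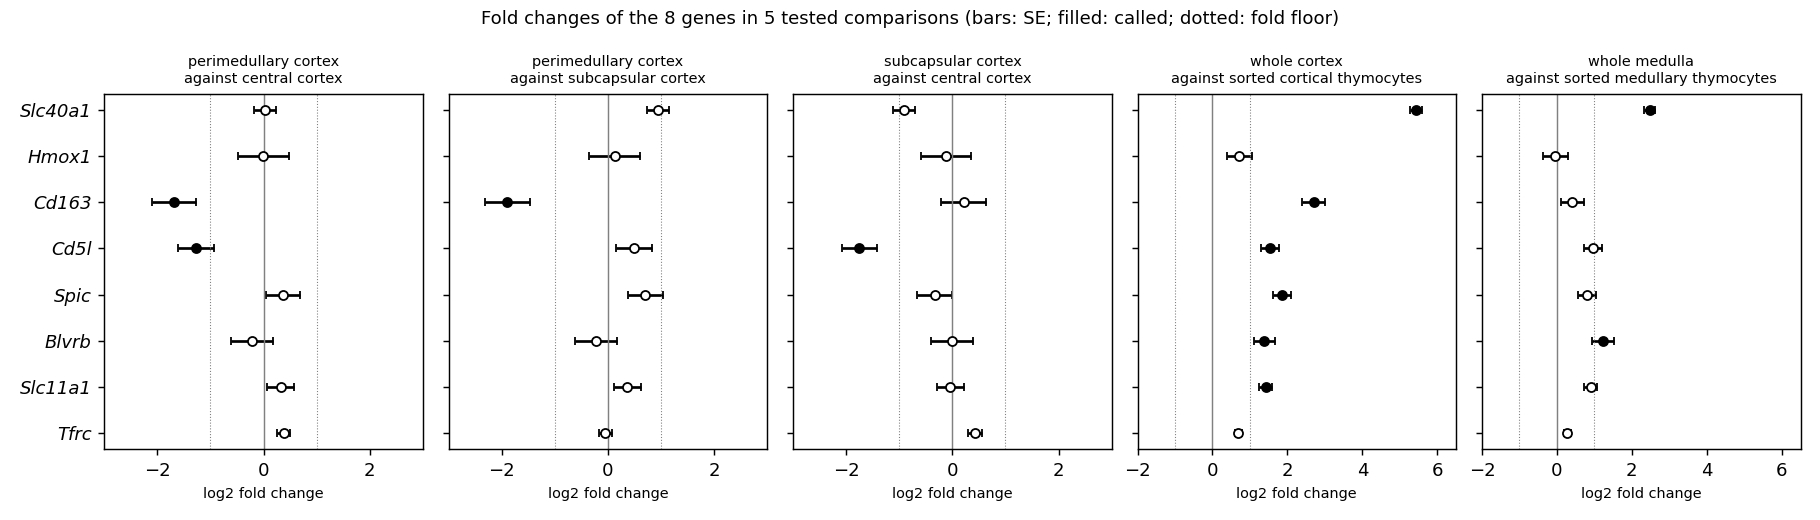
Log2 fold changes of the 8 genes in 5 comparisons (points, with SE as bars), filled where the gene was called, with dotted lines at the fold floor of 1 in either direction. Cd163 and Cd5l are the filled points among the cortical regions, and 6 genes are filled in whole cortex against sorted cortical thymocytes.

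Tissue was also set against sorted thymocytes of its own compartment, on arrays scaled separately. Whole cortex against sorted cortical thymocytes had 6 of the 8 genes called higher, where 9.57% of all genes tested were, and 0 lower, where 1.51% were. Slc40a1 rose by 5.43 (SE 0.15, limma adjusted p = 2.37e-26), Cd163 by 2.70 (SE 0.30, limma adjusted p = 3.72e-09) and Spic by 1.85 (SE 0.24, limma adjusted p = 6.21e-08). Cd5l, Slc11a1 and Blvrb rose by 1.54, 1.42 and 1.38. Of these, Slc40a1, Cd163 and Spic were the calls left with 4 times the offset. Tfrc was higher by 0.69 (SE 0.09, limma adjusted p = 1.14e-07), short of the floor, while its weaker probe sets differed the other way, by -0.46 and -0.14. Hmox1 was at 0.72 (SE 0.34, limma adjusted p = 0.0881).

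Signals of several of these genes in the sorted cells were low. Cd163 had 2.42, 45.9, 42.5, 24.1 and 3.25 in medullary thymocytes, against 6.47, 1.93, 34.95, 2.11 and 36.5 in cortical thymocytes, with 0 of the 10 arrays above the median of the array. Cd5l and both Spic probe sets were also below it on all 10 arrays, Cd5l at 27.0 to 48.4 in medullary and 33.6 to 58.9 in cortical thymocytes. Blvrb passed that median on 0 of 5 medullary and 3 of 5 cortical arrays, at 14.7 to 90.3 against 36.2 to 177, and Slc11a1 on 3 arrays of each group. Tfrc passed it on all 10. The 9 macrophage markers summed to 452 to 612 in sorted medullary and 400.2 to 548 in sorted cortical thymocytes, and 5 of 9 were below the median on every array of each group.

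Whole medulla against sorted medullary thymocytes had 2 of the 8 genes called higher, where 19.3% of all genes tested were, and 0 lower, where 1.2% were. The members' share was thus near that of all genes. Slc40a1 rose by 2.47 (SE 0.15, limma adjusted p = 1.54e-16) and Blvrb by 1.23 (SE 0.28, limma adjusted p = 0.000422). Cd5l, at 0.97 (SE 0.24, limma adjusted p = 0.000923), and Slc11a1, at 0.90 (SE 0.18, limma adjusted p = 7.73e-05), were just short of the floor. Spic was at 0.80 (SE 0.23, limma adjusted p = 0.00429), with its second probe set at 1.68, and the mean of both was called, at 1.24 (limma adjusted p = 5.77e-08). Cd163 differed by 0.42 (SE 0.30, limma adjusted p = 0.261) and Hmox1 by -0.04 (SE 0.34, limma adjusted p = 0.939). Blvrb fell below the fold floor at 4 times the offset, at 0.70, and with quantile normalization, at 0.80. Cd5l crossed the floor in 6 of the 12 fits that left out an array, at up to 1.04. Slc11a1 crossed it without whole medulla replicate 5, at 1.01.

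RNA of tissue and of sorted cells had been isolated with different kits, so in both of these comparisons kit and sample type cannot be told apart. Arrays without a wide tail were replicates 6 and 7 of both whole tissues, replicates 4 and 5 of sorted medullary thymocytes and all sorted cortical arrays. Within them, Hmox1 turned to 1.02 in whole medulla against sorted medullary thymocytes (SE 0.27). Both of these medulla arrays are among the 4 of 33 on which Hmox1 passed the array median, and so the filter, so no p is given. In whole cortex against sorted cortical thymocytes Hmox1 rose by 1.20 (SE 0.32). Whole cortex replicate 6, used in that fit, is another of the 4 arrays, so no p is given there either. Within the same arrays Blvrb was at 0.92 in the medullary and 0.97 in the cortical comparison, below the floor.

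Sorted medullary against sorted cortical thymocytes had 0 of the 8 genes called, where 7.67% of all genes tested were called higher and 6.28% lower. At an unadjusted p below 0.05 in limma, 3 were higher and 1 lower. Their log2 fold changes were 0.61 for Slc40a1 (SE 0.16, limma adjusted p = 0.00228), 0.88 for Hmox1 (SE 0.37, limma adjusted p = 0.0546), 0.23 for Tfrc (SE 0.098, limma adjusted p = 0.0572) and -0.73 for Blvrb (SE 0.31, limma adjusted p = 0.0543). The second Slc40a1 probe set differed by 0.03, and both Slc40a1 probe sets were below the array median on every sorted array. Hmox1 was 93.9, 80.8, 95.7, 61.6 and 70.5 in medullary thymocytes, against 51.65, 13.2, 45.1, 29.3 and 26.2 in cortical thymocytes, with no overlap. It was called with the wide-tail class as a term in the fit, at 1.22 (SE 0.39, limma adjusted p = 0.0118). Tfrc was 2965, 2050.0, 2499, 2242 and 2373 in medullary and 1941, 2453, 2021, 1887 and 1976 in cortical thymocytes, while both weaker probe sets differed the other way, by -0.29 and -0.72.

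Other genes of the pathway were taken from 7 lists chosen by function, with earlier results of these arrays known. In whole medulla against whole cortex, 7 of 20 genes of iron uptake and transport were called higher and 1 lower, with a median log2 fold change of 0.51 against 0.11 over all genes tested, of which 18.5% were called higher and 5.38% lower. All 7 dendritic cell and 3 of 6 epithelial markers were called higher in the same comparison. Cp, the ferroxidase ceruloplasmin that partners ferroportin, rose by 3.21 (SE 0.19, limma adjusted p = 1.61e-16). Heph, the membrane ferroxidase hephaestin, was higher by 2.31 (SE 0.24), at 145 to 379 against 2.73 to 60.3. Heph passed the filter on low signal only through whole medulla arrays. Its call here is thus no independent support, and no p is given. Hamp, which encodes hepcidin, the peptide that removes ferroportin from the cell surface, rose by 2.64 (SE 0.25, limma adjusted p = 1.98e-11). Steap4, a metal reductase, rose by 2.0 (SE 0.20, limma adjusted p = 7.98e-11). These genes were thus higher in the region where Slc40a1 was lower.

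Cp ran between 894 and 1271 in whole medulla, against 54.9 to 204 in whole cortex. It was 518, 425 and 513 in perimedullary cortex, 64.1, 109 and 152 in subcapsular cortex and 100.2, 56.1 and 80.6 in central cortex. Perimedullary cortex thus had a level between whole medulla and the rest of the cortex, with no overlap on either side. Cp rose by 2.30 in perimedullary against central cortex (SE 0.30, limma adjusted p = 1.68e-06) and by 1.98 against subcapsular cortex (SE 0.30, limma adjusted p = 8.38e-06). It was the one gene of its list called between perimedullary and central cortex. Hamp ran between 457 and 1150.2 in whole medulla, against 47.2 to 162 in whole cortex, and was at or below 75.3 on all 9 arrays of the divided cortex.

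Among 9 genes of haem and haemoglobin handling, 1 was called in whole medulla against whole cortex, where 5.38% of all genes tested were called lower. This was Bach1, the repressor that haem inactivates and that acts on Hmox1 and Slc40a1. It fell by 1.09 in whole medulla against whole cortex (SE 0.10, limma adjusted p = 5.05e-12), at 2783 to 3593 against 5696 to 9502. It was again the 1 call of the list in sorted medullary against sorted cortical thymocytes, where it fell by 1.46 (SE 0.11, limma adjusted p = 3.22e-13) and the signal was 1978, 2477, 2501, 2763 and 3123 against 7328, 6678, 6718, 7296 and 7224. In whole cortex against sorted cortical thymocytes it differed by -0.02 (SE 0.11, limma adjusted p = 0.89). The calls of the list in tissue against sorted cells were Hp, haptoglobin, and Lrp1, the receptor for haem bound to haemopexin. Lrp1 rose by 2.21 in whole medulla against its sorted cells and by 2.14 in whole cortex against its own. Hp rose by 2.01 (SE 0.32) and 1.41 (SE 0.32, limma adjusted p = 0.000544) in the same order. Hp was below the array median on every sorted, perimedullary and central array. It thus passed the filter only through other tissue arrays, whole medulla among them, so no p is given for the medulla. Of 5 genes of iron storage and its control, 0 were called by limma in any of the 7 comparisons, and between whole medulla and whole cortex 1 was higher and 3 were lower at an unadjusted p below 0.05. Fth1, ferritin heavy chain, was -0.18 between whole medulla and whole cortex (SE 0.07, limma adjusted p = 0.0265) and 0.75 between whole cortex and sorted cortical thymocytes (SE 0.08, limma adjusted p = 8.49e-10), in both below the floor.

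**Figure D4:**
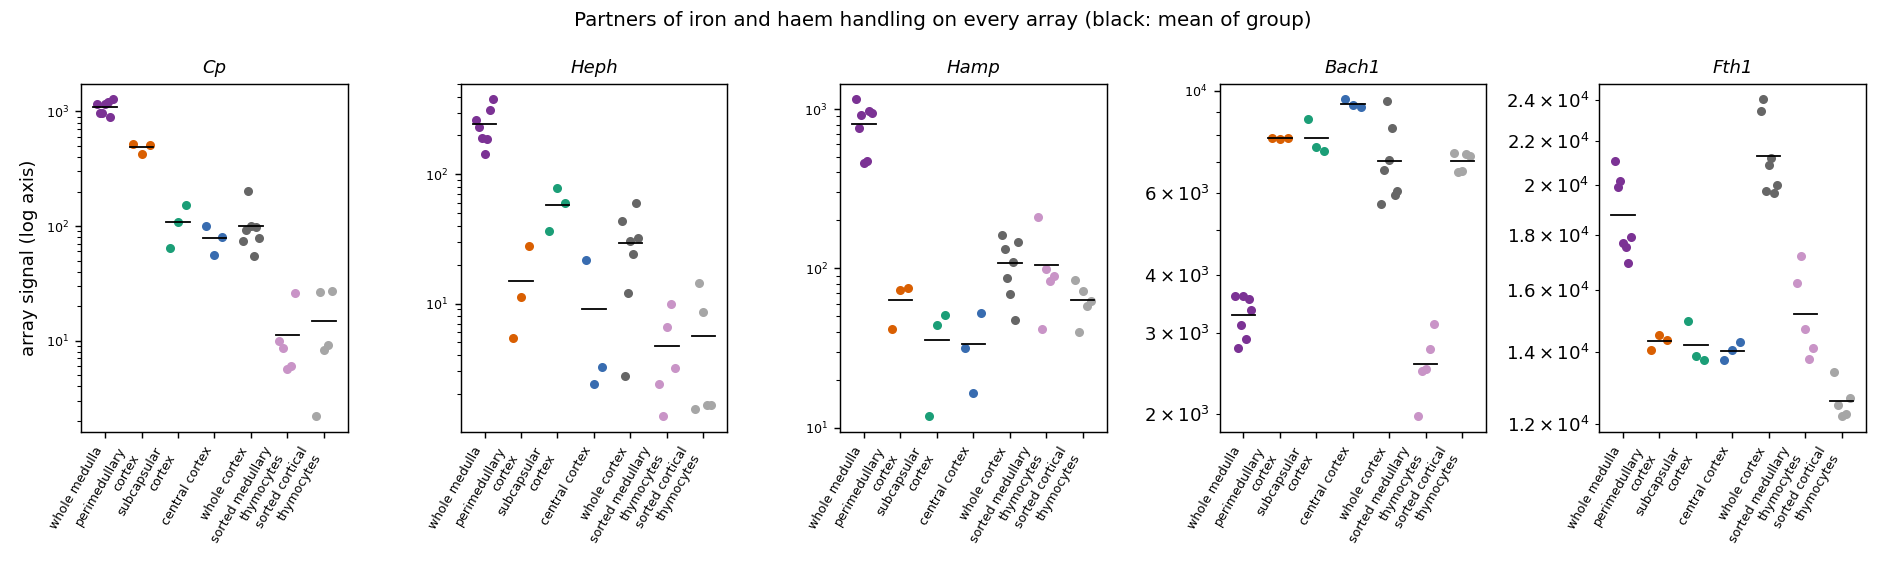
Signal of 5 genes of iron and haem handling on each array (log axes that differ between panels, 1 point per array, black bars at group means). Cp, Heph and Hamp are highest in whole medulla, and Bach1 is low in whole medulla and in sorted medullary thymocytes.

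Haem synthesis had 0 of 11 genes called by limma between whole medulla and whole cortex, with 2 higher and 3 lower at an unadjusted p below 0.05. The 9 targets of NRF2 and BACH1, a group to which Hmox1 belongs, had 1 called there, Gclc, at 1.08 (SE 0.13, limma adjusted p = 5.53e-09). In that comparison 18.5% of all genes tested were called higher. Between perimedullary and subcapsular cortex the transport list had 1 gene higher, Cp, and 3 lower, where 2.91% and 1.66% of all genes tested were. Scara5, a receptor for ferritin, fell by 1.50 (SE 0.37), at 19.1 to 37.6 against 104 to 159. Its perimedullary arrays were below the array median. It passed the filter through the subcapsular arrays, all above that median, so no p is given. Slc39a8, a metal importer, fell by 1.42 (SE 0.25, limma adjusted p = 9.92e-05) and Heph by 1.04 (SE 0.36, limma adjusted p = 0.0425). The Heph call was lost in 4 of the 6 fits that left out an array. Between subcapsular and central cortex, Scara5, Steap4 and Heph were called higher, by 1.40, 1.33 and 1.27, where 0.847% of all genes tested were called higher. Leaving out 1 array lost the call of Scara5 in 3 of 6 fits, of Steap4 in 1 and of Heph in 4. Heph was below the median of its array on every array of the divided cortex. It had 36.1, 78.1 and 59.7 in subcapsular, 21.6, 2.37 and 3.20 in central and 5.44, 11.3 and 27.8 in perimedullary cortex. The calls of Heph between these regions therefore compare weak signals. Scara5 was also below the array median in central cortex, at 20.2 to 43.7. Of 8 relatives with scavenger receptor cysteine-rich domains, 3 were called higher and 1 lower in whole medulla against whole cortex. Of all genes tested, 18.5% were called higher and 5.38% lower there. Dmbt1 led the 3, at 2.86 (SE 0.25, limma adjusted p = 1.89e-12). Scara5 was the lower one, at -1.29 (SE 0.24, limma adjusted p = 2.04e-05). It is a receptor with a scavenger receptor cysteine-rich domain, as is Cd163, and as with Cd163 it was called lower in perimedullary than in subcapsular cortex. That call rests on a weak perimedullary signal, as given above. Alas2, the erythroid enzyme of haem synthesis, fell by 1.52 in perimedullary against subcapsular cortex (SE 0.49, limma adjusted p = 0.0277), a call lost in 5 of the 6 fits that left out an array.

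Of 12 genes shared with red pulp or resident macrophages, 2 were called lower and 1 higher in whole medulla against whole cortex, with a median of -0.11. The shares over all genes tested were 5.38% lower and 18.5% higher. Fcna, a secreted lectin, fell by 1.45 (SE 0.30, limma adjusted p = 8.98e-05), Mrc1, the mannose receptor, fell by 1.11 (SE 0.19, limma adjusted p = 3.06e-06), and Stab1, a scavenger receptor, rose by 1.12 (SE 0.25, limma adjusted p = 0.000172). In whole cortex against sorted cortical thymocytes 9 of the 12 were called higher, where 9.57% of all genes tested were. Their median was 1.99 against 0.10 over all genes tested. Vcam1, an adhesion molecule of stroma and of red pulp macrophages, rose by 7.04 (SE 0.11, limma adjusted p = 3.7e-34) and Mrc1 by 4.04 (SE 0.20, limma adjusted p = 1.88e-18). Timd4, a receptor for dying cells, rose by 1.62 in perimedullary against subcapsular cortex (SE 0.37, limma adjusted p = 0.00174), the reverse of Cd163 there.

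Of 13 erythroid markers, 7 had a probe set with 1 symbol and 3 of these passed the filter. The 3 summed to 239 to 564 in whole medulla, against 144 to 480 in whole cortex, and were not called there. Globin and band 3 genes were not among these 3. Whether red cells in the tissue bear on the members was not tested.

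Across the 23 tissue arrays, the gene whose log2 values were most like those of Slc40a1 was Bcl6, at a Pearson r of 0.983, followed by Wdr78 and Lipa at 0.979 each. For Cd163 they were Cenpi at 0.922, Prickle1 at 0.900 and Lig1 at 0.898. For Hmox1 the nearest was Atp6v0d1 at 0.875 and for Spic Ptprcap, also at 0.875 to 3 digits. Blvrb was most like 0610012G03Rik at 0.862, Slc11a1 like 1600029O15Rik at 0.731, Cd5l like Selenoo at 0.714 and Tfrc like Mrpl2 at 0.611. These arrays come in 5 groups, so such values mostly repeat the differences between groups. Among the members, Slc40a1 and Cd163 were at 0.709, Hmox1 and Spic at 0.656, and Slc40a1 and Hmox1 at -0.498, so the 8 genes did not share 1 pattern over the tissue.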

How the data were processed

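RNA from 23 dissected thymus samples and 10 sorted thymocyte samples was measured on 1 array each. The deposited values are array signal intensities on a linear scale, 1 per probe set, which the authors made with Affymetrix Expression Console 1.0 and MAS5, per the submitters' processing notes. Scaling was done array by array, as seen in the values: the mean without the lowest and highest 2% of probe sets was 492 to 498. No further normalization between arrays was applied, and background settings, detection calls and scan dates are not given in the sources used here. Median signals were 71.9 to 163, Pearson correlations of log2 values within groups 0.916 to 0.984, and no arrays held identical values. The number of arrays limits the precision.

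Of 45037 probe sets, 34945 had 1 gene symbol, 932 several and 9160 none in the platform annotation. A probe set was kept if its signal exceeded the array median on 3 or more arrays (24883 with 1 symbol). Before log2, 26.2 was added, which is the 25th percentile of the signals (median of the arrays' values). For a gene with several probe sets, the one of highest mean log2 signal stood for it, giving 13463 genes. Other probe sets were used to check directions. The fit used limma 3.58.1 under R 4.3.3, with all arrays, 1 mean for each of the 7 groups and a moderated spread with trend. Tests are 2-sided with Benjamini-Hochberg adjustment over all genes tested, and the calculation was tested on simulated data.

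The 8 genes, the gene lists and the tests were chosen with earlier results of these data known, so no count of members stands as independent support. Named list genes are up to 4 called genes of a list and comparison with the largest change, or, for a list with no call, its gene of lowest p; some of these are covered by counts alone, and Fth1, Heph, Scara5 and Timd4 values beyond that rule, and Bach1 in tissue against sorted cells, were chosen after their values were seen. Alternatives were the offset, quantile normalization, no filter, the mean of a gene's probe sets, a fit of the compared groups alone, array weights, a replicate block, the class of arrays with a wide upper tail, and leaving out each array. Replicate numbers are shared between groups, but the deviations of same-numbered arrays correlated between -0.0804 and 0.256, not above 0.1 in every pair, so the numbers were not taken to pair arrays. Promoter windows and gene positions come from RefSeq tables of GRCm38.p6. Sequences of the proteins were not used here.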

Additional observations from a re-analysis of the deposited data

Results flagged for a closer look

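Single arrays stood apart from their group in 4 of 48 groups of 5 or 7 arrays examined, 1 group per probe set of the 8 genes and kind of sample. Dixon's test flags about 1 in 20 by chance. Slc40a1 had a signal of 31.8 on replicate 4 of sorted cortical thymocytes, where the other arrays were at 4.05 to 7.48, all below the median of their array. The second Slc40a1 probe set had 38.9 on replicate 1 of whole medulla, where the others were at 114 to 198. Spic had 108 on replicate 3 of whole cortex, where the others were at 209 to 306, and its second probe set had 243.8 on that array, the highest of the group. Tfrc had 2453 on replicate 2 of sorted cortical thymocytes, where the others were at 1887 to 2021.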

How the results depend on the processing

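Counts of called members moved by more than 1.5 times, or to or off 0, in these settings. For perimedullary against central cortex (2 as reported) there were 0 with an offset of 6.55, 1 with 4 times the offset, 1 with quantile normalization and 1 in a fit of those groups alone, and 0 to 2 with an array left out. For perimedullary against subcapsular cortex (1) there were 1 to 2 with an array left out. For sorted medullary against sorted cortical thymocytes (0) there was 1 with an offset of 6.55, Slc40a1, and 1 with the wide-tail class as a term, Hmox1. For whole medulla against sorted medullary thymocytes (2) there were 4 with an offset of 6.55, 1 with 4 times the offset, 1 with quantile normalization, and 2 to 4 with an array left out. For whole cortex against sorted cortical thymocytes (6) there were 3 with 4 times the offset. Members without overlap between whole medulla and whole cortex (2, with 29.9% of all genes without overlap in either direction) were 4 with the mean of probe sets (28.6% of all genes) and 6 within arrays without a wide tail, where 2 arrays a group leave 76.5% of all genes without overlap. Hmox1 in whole medulla against sorted medullary thymocytes reversed within those arrays, to 1.02 from an uncalled -0.04. The 2 medulla arrays of that fit are among those through which Hmox1 passed the filter. The cause was not tested. Among all genes, 4 times the offset, which shrinks the folds of weak signals, left 108 higher and 1 lower in perimedullary against central cortex, 232 and 137 in perimedullary against subcapsular cortex, 61 and 30 in subcapsular against central cortex, 671 higher between sorted groups, 616 and 79 in whole cortex against sorted cells, 102 lower in whole medulla against sorted cells, and 53 of 85 calls in the pathway lists. Genes lower in perimedullary against central cortex (5) were 3 with an offset of 6.55, 10 with array weights and 1 to 5 with an array left out. Genes lower in subcapsular against central cortex (60) were 91 in a fit of those groups alone and 96 with array weights, and genes higher there (114) were 75 to 124 with an array left out. Genes lower in whole cortex against sorted cells (203) were 428 with the replicate block, 49 with the wide-tail term and 42 within arrays without a wide tail. Genes lower in whole medulla against sorted cells (162) were 326 with quantile normalization and 252 with the replicate block. The replicate block moved no count of called members. The median of all genes between whole medulla and whole cortex was 0.11, and -0.02 with quantile normalization, where the differences of Slc40a1 and Spic were -2.62 and -1.21. No detection call is given, so weak signals cannot be told from background. Such signals include those of Hmox1, of Heph in the divided cortex, of Scara5 in perimedullary and central cortex, and of Hp and most members in sorted cells.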
